A study of Mus musculus with 4 samples.

Results

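*Cish*, *Socs1*, *Socs2*, *Socs3* and *Pim1* are 5 genes that cytokine receptors switch on and that act back on cytokine signalling. They were followed here through single cells sorted as group 2 innate lymphoid cells (ILC2s, which lack antigen receptors and secrete type 2 cytokines). The genes were chosen by name, and all 5 of 5 were found in both of the marker tables used, which together named 3488 genes. The cells came from the liver or the lung of BALB/c mice, wild type, that received rIL-33 (recombinant interleukin-33) or PBS intraperitoneally once a day over 5 days. The dose of rIL-33 was 0.5 µg. Cells were sorted as lineage-negative and positive for CD127, Thy1 and ST2, and the lineage panel included CD3e and TCRb. The tissue of several mice was pooled in each group. Each of the 4 groups (PBS liver, rIL-33 liver, PBS lung and rIL-33 lung) gave 1 library of transcript 3' ends.

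The authors had pooled the 4 libraries before making either table. The first, called the cell type table here, set each of 21 named cell types against all other sorted cells. The second set each of 10 numbered subclusters of the cells kept as ILC2s against the other ILC2s and is called the ILC2 subcluster table. A row of a table, a gene in a cluster, is called a listing, and rows were kept only where the average of the cluster was the higher. No value was split by library. rIL-33 and PBS, or liver and lung, were therefore not compared, no replicate stood behind a value, and no test was made. Every percentage of cells below is the deposited share of cells in which the gene had a value above 0, pooled over all libraries.

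Many cytokine receptors signal through Janus kinases (JAKs), which phosphorylate STAT proteins that then enter the nucleus and switch on genes. The suppressors of cytokine signalling, or SOCS proteins, are among the products. They bind phosphorylated receptors or the JAKs themselves and close a negative feedback loop. *Cish* encodes CIS, a member of the same family that limits STAT5 signalling below receptors such as that of IL-2, and *Pim1* encodes a serine/threonine kinase whose activity follows its amount and which favours survival and growth. ILC2s depend on IL-7, IL-2 and TSLP, which use this route. IL-33 binds ST2 (*Il1rl1*) and acts mainly through NF-κB.

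In GENCODE vM21 on GRCm38 (mm10) all 5 genes are protein-coding. *Cish* (ENSMUSG00000032578) lies at chr9:107296026-107302784 on the plus strand, with 3 exons in its principal transcript. *Socs1* (ENSMUSG00000038037) lies at chr16:10782240-10785536 on the minus strand with 2 exons. *Socs2* (ENSMUSG00000020027) lies at chr10:95385362-95417180 on the minus strand with 3 exons. *Socs3* (ENSMUSG00000053113) lies at chr11:117966079-117970047 on the minus strand with 2 exons, and *Pim1* (ENSMUSG00000024014) at chr17:29490753-29496112 on the plus strand with 6.

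A feature that feedback genes may share is the STAT motif TTCNNNGAA, which reads the same on both strands. It was searched in RefSeq promoter windows (GRCm38.p6, 300 bases, from 250 before to 50 after a start site). These windows were matched by symbol for 4 of the 5 genes, with 5 windows in all because *Pim1* had 2. *Socs2* was not matched. The motif was in 2 of the 5 windows, those of *Cish* and *Socs3*, and in 8.3% of all 32851 windows. The *Cish* window held it 2 times, and 0.457% of all windows held it 2 or more times. The stretches are shown in gene orientation because they carry this difference among the genes, with the letters of a match in capitals.
Cish: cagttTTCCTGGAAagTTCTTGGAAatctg
Socs3: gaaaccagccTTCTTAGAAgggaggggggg
Socs1: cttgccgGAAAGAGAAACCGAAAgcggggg

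The *Cish* stretch is chr9:107296654-107296683 on the plus strand, and its matches begin at the RefSeq start site and 11 bases after it, within the 5' UTR in the first exon of Cish-201. The *Socs3* stretch is chr11:117969501-117969530 on the minus strand, with the match 154 bases before the start site. That position falls in an intron of a longer Socs3 transcript. The *Socs1* window held no TTCNNNGAA. It is shown for GAAA, any 2 bases and GAAA again, a motif of interferon regulatory factors searched on both strands and added after the data were seen. Both of its matches, which overlap each other, lie 83 and 77 bases before the start site at chr16:10785597-10785626 on the minus strand, upstream of the annotated gene. This motif was in 1 of the 5 windows and in 3.44% of all windows. The STAT motif with 4 in place of 3 free bases, the spacing that STAT6 prefers, was in 0 of the 5 windows and in 6.95% of all. A match is only a run of letters, and neither binding nor chromatin was analysed here.

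The 5 genes gave 26 listings in the cell type table, where 12.5% of all pairs of a gene and a type were listed. At least 1 of them was listed for 15 of the 21 types. The type that the authors named ILC1_ILC3 listed 4 of the 5, all but *Socs3*, beside 13.4% of all genes of the table. Of these, 2 reached a log2 fold change of 0.5 there, *Cish* and *Socs1*. By the ratio of the shares inside and outside, *Cish* at 1.44 stood above the median of the type's listings, 1.34. *Socs2* at 1.24, *Socs1* at 1.15 and *Pim1* at 1.1 stood below it. This small type, whose size solved from the shares was 0.592% ± 0.00996 of the sorted cells (least-squares SE), listed the ILC3 marker *Ccr6* in 82.5% of its cells against 50.8% of other cells. It also listed *Ncr1*, a receptor of NK cells and ILC1s, in 79.2% against 63.8%. No type listed all 5, and the 6 types that listed none were CD4, CD8_Effector, Macrophage, Plasma cell, Prolifelation cell (so spelled in the table) and gdT_TypeII.

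**Figure D1:**
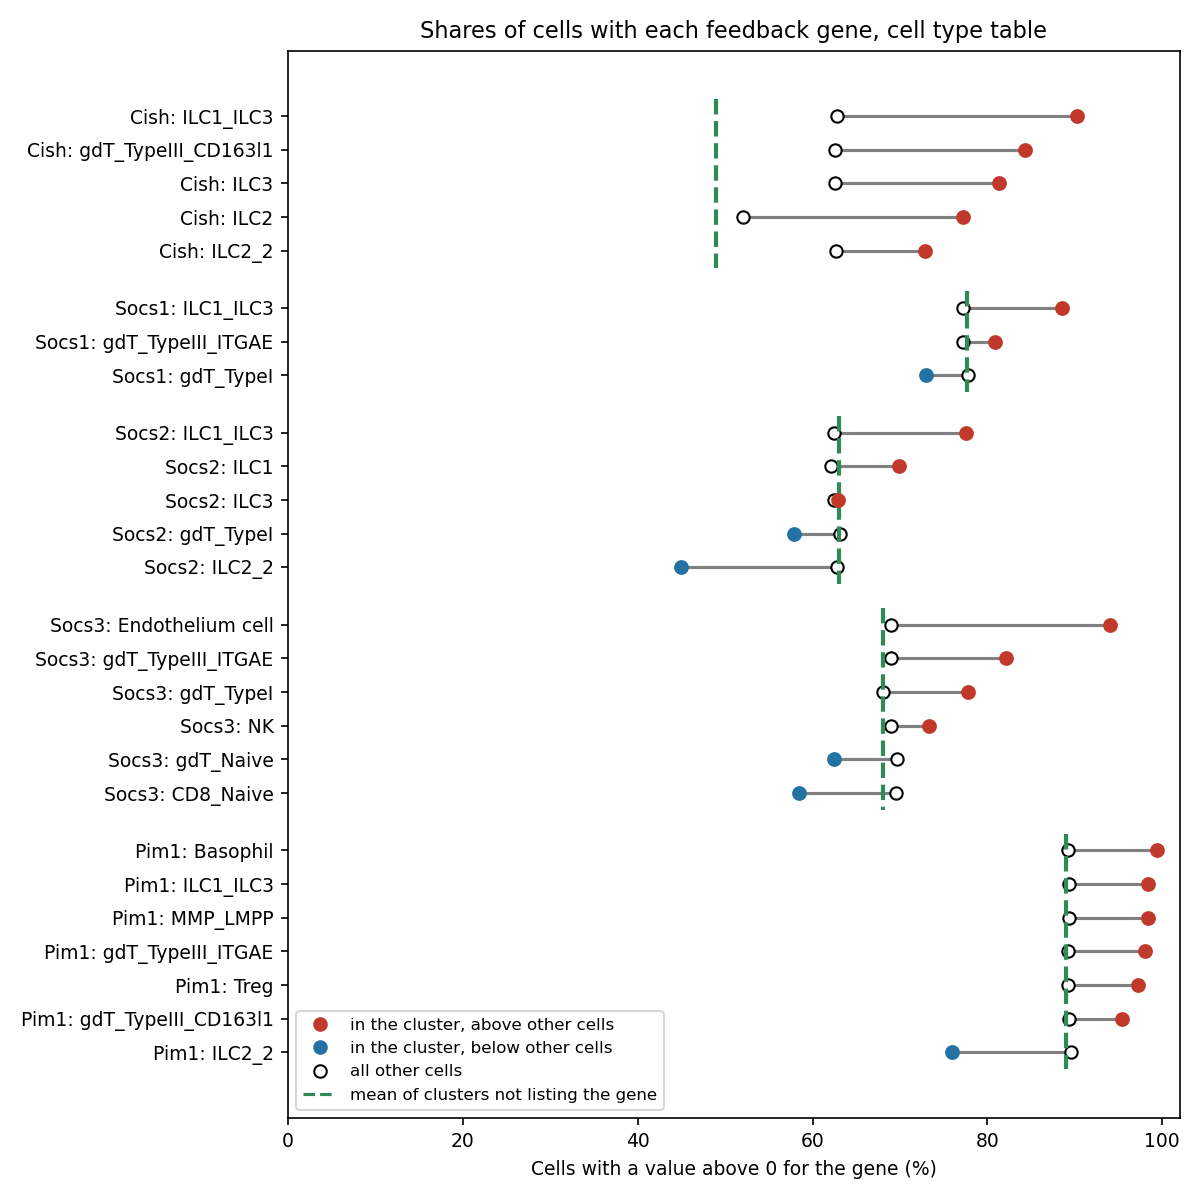
Each row is a listing of a gene for a cell type, and the x axis gives the percentage of cells with a value above 0; filled points are the type (red above other cells, blue below), open points all other cells, and dashed lines the mean over types that did not list the gene. *Cish* is above other cells in all 5 of its types and its dashed line at 49.0% lies far below them, whereas the *Pim1* points crowd between 95.4% and 99.4% except for ILC2_2 at 76.0%.

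*Cish* was listed for 4 of the 5 types with ILC in their name, for 1 of 9 T cell types by name and for 0 of the 7 others. Of these T cell types, gdT_TypeII listed 4 of 13 ILC2 markers, with *Gata3* in 97.6% of cells against 74.0%, and 0 of 9 T cell markers, but it listed only 1.67% of all genes. In ILC2, *Cish* was found in 77.2% of cells, against 52.0% of all other cells. In ILC1_ILC3 it was found in 90.2% against 62.8%, in gdT_TypeIII_CD163l1 (γδ T cells) in 84.3% against 62.6%, in ILC3 in 81.3% against 62.6%, and in ILC2_2 in 72.9% against 62.7%. The type was above all other cells in each of the 5, and by the most in ILC1_ILC3 at 27.4 percentage points.

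ILC2 was by far the largest type, at 43.2% ± 0.0133 of the sorted cells. It therefore held 53.0% of all *Cish*-positive cells, and the 5 listing types together held 60.0% with 48.7% of the cells. Positive means a value above 0, which in the cell type table cannot be read as detection of a transcript. Across all sorted cells 62.9% had *Cish*. Over the 16 types that did not list it the mean was 49.0% (within 0.145 points from rounding of the deposited shares). Of the 5 genes *Cish* alone was listed for ILC2, which listed 8.1% of all genes, and it ranked 69 of 136 there by the ratio of the shares inside and outside.

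The identity of ILC2 was checked on its markers. It listed 11 of 13 ILC2 markers, among them *Il1rl1* in 90.2% of cells against 47.7% and *Gata3*, the transcription factor that specifies ILC2s, in 93.0% against 60.2%, and it listed 0 of 9 T cell markers. *Il2ra*, the high-affinity chain of the IL-2 receptor that signals through STAT5, was listed for 4 of the 5 types that listed *Cish*. It was found in 81.0% of ILC2 against 47.9%, in 90.7% of ILC1_ILC3 against 62.0%, in 73.3% of ILC3 against 62.0% and in 86.6% of gdT_TypeIII_CD163l1 against 61.9%. The fifth type, ILC2_2, did not list *Il2ra*, and *Il2ra* was listed without *Cish* for gdT_TypeII, in 87.6% against 61.8%, and gdT_TypeIII_ITGAE, in 79.3% against 62.0%. The type named ILC3 also listed 5 of 9 T cell markers, with *Cd3e* in 91.4% against 83.3% and *Cd3g* in 97.1% against 85.3%. Its name is therefore not borne out by *Cd3e* and *Cd3g*, and their part in the *Cish* value was not tested.

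*Socs1*, whose product blocks JAK activity below interferon and common γ-chain receptors, had 3 listings. In ILC1_ILC3 it was found in 88.5% of cells against 77.2% of other cells. In gdT_TypeIII_ITGAE it was found in 80.9% against 77.2%, and in gdT_TypeI in 73.0% against 77.8%. In gdT_TypeI the share of cells was thus lower than elsewhere although the average was higher. The share over all sorted cells was 77.3% and the mean over the 18 other types was 77.7% (within 0.0657 points), close to each other.

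*Socs2*, whose product is best known for restraining growth hormone signalling, was listed for 4 of the 5 types with ILC in their name and 1 T cell type, and not for ILC2. It was found in 77.6% of ILC1_ILC3 against 62.4%, in 69.9% of ILC1 against 62.1%, and in 62.9% of ILC3 against 62.5%. The last pair differed by 0.4 points. In 2 further types the share was below that of other cells, at 57.9% against 63.1% in gdT_TypeI and at 44.9% against 62.8% in ILC2_2. *Cish* and *Socs2* had 3 types in common, which was 60.0% of the types of each. In ILC2_2 they went in opposite directions by share, with *Cish* 10.2 points above and *Socs2* 17.9 points below other cells. By average they went the same way, since both were listed there with the higher average.

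*Socs3*, whose product acts on gp130 receptors such as that of IL-6, was listed for 0 of the 5 types with ILC in their name, 4 of the 9 T cell types and 2 of the 7 others, NK being 1 of the latter. It shared no type with *Cish*. *Socs3* was found in 94.0% of the Endothelium cell type against 69.0% of other cells, in 82.1% of gdT_TypeIII_ITGAE against 69.0%, and in 77.8% of gdT_TypeI against 68.0%. In NK it was found in 73.3% against 69.0%. In both naive T cell types it was found in fewer cells than elsewhere, at 62.4% of gdT_Naive against 69.6% and at 58.4% of CD8_Naive against 69.5%. This was near the background of both types, where 74.5% and 57.1% of all listings were of genes in a smaller share of cells.

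By share of cells, *Socs3* thus stood highest in the Endothelium cell type and lowest in CD8_Naive among the types that listed it. The Endothelium cell type listed 23.6% of all genes with a median ratio of 2.14, and *Socs3*, at 1.36, ranked 337 of its 397 listings. The Endothelium cell type listed the endothelial markers *Cdh5* in 93.6% of its cells against 15.6% and *Pecam1* in 96.4% against 46.8%. It also listed *Il6st*, which encodes gp130, in 82.9% against 65.9%. Both naive types listed *Il6st* with the higher average but in fewer cells, at 46.5% against 67.3% in gdT_Naive and 49.7% against 66.5% in CD8_Naive. Of the cytokine pathway genes listed for these types, 8 of 8 and 5 of 8 were in fewer cells. *Il6st* was also listed for MMP_LMPP, in 97.6% against 65.9%, ILC2_2, in 76.0% against 65.9%, and Treg, in 45.8% against 66.5%, which did not list *Socs3*, and it was not listed for gdT_TypeI, gdT_TypeIII_ITGAE or NK, which did. gdT_TypeI made up 11.7% ± 0.026 of the sorted cells and held 13.2% of the *Socs3*-positive cells. It listed 3 of the 5 genes (*Socs1*, *Socs2* and *Socs3*) beside 8.64% of all genes, and only *Socs3* was in a larger share of its cells than elsewhere.

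*Pim1* had the most listings of the set, 7. With a log2 fold change of 0.5 or more, *Socs3* kept 6, and *Pim1* and *Cish* kept 5 each. *Pim1* was found in 89.3% of all sorted cells. The shares were 99.4% in Basophil, 98.4% in both ILC1_ILC3 and MMP_LMPP, 98.0% in gdT_TypeIII_ITGAE, 97.2% in Treg and 95.4% in gdT_TypeIII_CD163l1, against 89.2% or 89.3% of other cells. ILC2_2 stood apart by share, at 76.0% against 89.6%, although the average of *Pim1* was the higher there too. The 7 types held 8.9% of the *Pim1*-positive cells with 8.55% of all sorted cells, and the mean over the 14 types that did not list it was 89.0% (within 0.0594 points).

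With *Pim1* found in nearly all cells of those types, the share of cells leaves little room to differ. gdT_TypeIII_ITGAE listed 3 of the 5 genes (*Socs1*, *Socs3* and *Pim1*) beside 11.7% of all genes, each in a larger share of cells than elsewhere. ILC2_2 also listed 3 (*Cish*, *Socs2* and *Pim1*), beside 11.9% of all genes, but 2 of them were in a smaller share. In ILC2_2, 53.0% of all listings were of that kind. It listed 4 of 13 ILC2 markers, *Il1rl1* in 85.8% of cells against 65.7%, *Areg* in 62.7% against 43.7%, *Il17rb* in 40.5% against 41.2% and *Rora* in 77.6% against 81.3%, and the immunoglobulin gene *Igkc* in 33.8% against 21.1%. The part of these markers in the values of ILC2_2 was not tested.

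Shares in the cell type table cannot be read as detection of a transcript. *Cd3e*, which encodes an antigen that the sort excluded, had a value above 0 in 83.5% of all sorted cells there and in 5.76% of ILC2s in the other table. The assay behind either table was not stated, so shares were compared within a table and not between the tables.

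Among ILC2s, the set gave 10 listings in 6 of the 10 subclusters, where 14.2% of all pairs of a gene and a subcluster were listed. Subclusters 2, 4, 6 and 9 listed none. Subcluster 4 listed all 3 proliferation markers, among them *Mki67* in 54.7% of cells against 15.0%. No subcluster listed more than 2 of the genes, and the pairs differed. *Socs1* and *Socs3* were listed in subcluster 7, *Socs2* and *Pim1* in subcluster 8, *Cish* and *Socs1* in subcluster 0, and *Socs1* and *Pim1* in subcluster 5. Of the 10 listings, those with a log2 fold change of 0.5 or more were *Socs1* in subcluster 0 and *Pim1* in subclusters 1 and 8.

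**Figure D2:**
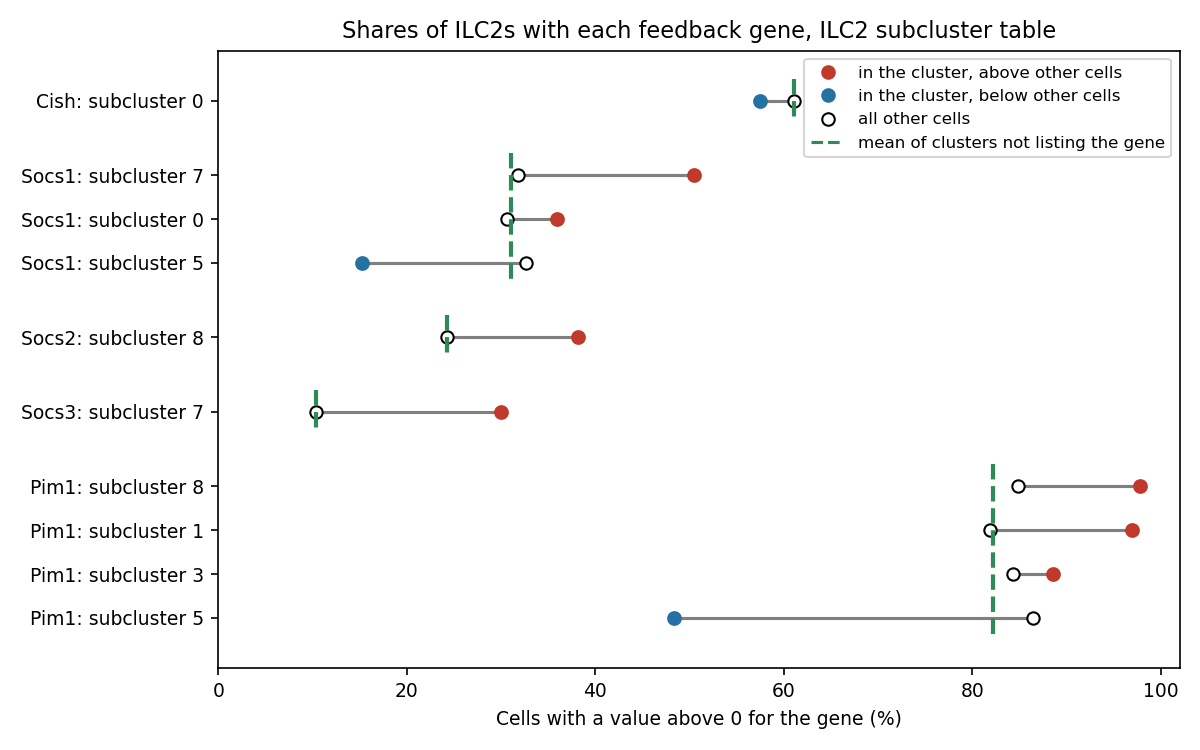
Each row is a listing of a gene for an ILC2 subcluster, and the x axis gives the percentage of ILC2s with a value above 0; filled points are the subcluster (red above other ILC2s, blue below), open points all other ILC2s, and dashed lines the mean over subclusters that did not list the gene. *Socs3* stands at 30.0% in subcluster 7 against 10.4% elsewhere, and *Pim1* at 48.3% in subcluster 5 against 86.4%.

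Subcluster 7 alone listed *Socs3* among ILC2s. The gene was found in 30.0% of its cells against 10.4% of other ILC2s, a ratio of 2.88 that ranked 37 of the 270 listings of the subcluster, whose median ratio was 1.7. *Socs1* was found there in 50.5% against 31.8%, a ratio of 1.59 that ranked 167. Both genes thus stood above other ILC2s in the same subcluster by share of cells, and neither reached a log2 fold change of 0.5 there. The subcluster listed 10.3% of all genes.

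Subcluster 7 was small, at 1.42% ± 0.0144 of ILC2s, and it held 3.99% of the *Socs3*-positive ILC2s and 2.24% of the *Socs1*-positive ones. A gene could enter the table only when at least 25.0% of the cells on 1 side had it. The mean of *Socs3* over the other 9 subclusters, 10.4%, was below that floor, so the ratio of any listing of *Socs3* had to be large, and its absence from the other lists does not show that those subclusters were alike. The same subcluster listed *Osm*, a ligand of the gp130 family, in 29.5% of cells against 13.1%, *Il4* in 41.5% against 22.3% and *Pim3* in 42.0% against 24.5%. It also listed 5 of 13 ILC2 markers, including *Il5* in 46.5% against 28.1%, as well as *Trbc1* in 86.5% against 79.5% and the cytotoxic granule gene *Nkg7* in 40.0% against 13.0%. The part of *Trbc1* and *Nkg7* in the *Socs3* and *Socs1* values was not tested.

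*Socs1* was listed for 2 further subclusters. In subcluster 0, the largest at 27.3% ± 0.0274 of ILC2s, it was found in 35.9% of cells against 30.6%, and this subcluster held 30.6% of all *Socs1*-positive ILC2s. In subcluster 5 it was found in 15.3% against 32.7%. The mean over the 7 subclusters that did not list *Socs1* was 31.1% (within 0.0984 points). The order was thus subcluster 7, subcluster 0, the unlisted subclusters together and subcluster 5.

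*Cish* was listed for subcluster 0 alone, and there by its average and not by its share, which was 57.5% against 61.1% of other ILC2s. Of the listings of subcluster 0, 36.3% were of this kind, and it listed 11.4% of all genes. *Cish* was found in 60.1% of all ILC2s, and in 61.1% (within 0.05 points) of those outside subcluster 0. Subcluster 0 also listed *Il1rl1* in 96.2% of cells against 86.6% and *Il2ra* in 81.9% against 74.3%. The common γ chain *Il2rg* was listed there with a smaller share as well, at 87.0% against 88.1%.

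*Socs2* was listed for subcluster 8 alone, in 38.2% of cells against 24.3%, a ratio of 1.57 that ranked 104 of 253. It was the only listing of the set, in either table, that did not pass the authors' adjusted p-value of 0.05. Subcluster 8 held 0.668% ± 0.0164 of ILC2s and 1.05% of those with *Socs2*, so this value rests on few cells. The subcluster listed 9.62% of all genes.

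*Pim1* had 4 listings among ILC2s. It was found in 97.8% of subcluster 8 against 84.8%, in 96.9% of subcluster 1 against 81.9% and in 88.6% of subcluster 3 against 84.3%. In subcluster 5 it was found in 48.3% against 86.4%, the largest gap of the set at 38.1 points below. Subcluster 1, with 20.1% ± 0.0166 of ILC2s, held 22.9% of the *Pim1*-positive cells, and subcluster 3, with 14.9% ± 0.0315, held 15.6%. These were the only listings of the set in subclusters 1 and 3, which listed 13.8% and 9.01% of all genes. The mean over the 6 unlisted subclusters was 82.2% (within 0.115 points). By ratio of shares, *Pim1* stood at 1.15, 1.18 and 1.05 in subclusters 8, 1 and 3, below their medians of 1.47, 1.34 and 1.13.

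The 3 subclusters with *Pim1* above other ILC2s were also the 3 that listed *Nfkbia* and *Tnfaip3*, the feedback inhibitors of the NF-κB route that ST2 uses. *Nfkbia* was found in 97.3% of subcluster 1 against 90.1%, 95.4% of subcluster 3 against 90.8% and 98.9% of subcluster 8 against 91.5%. *Tnfaip3* was found in 88.8% against 76.7%, 93.0% against 76.7% and 93.3% against 79.0%, in the same order. *Dusp1*, listed for subclusters 1, 2 and 3, and *Dusp2*, listed for subclusters 1, 4 and 8, did not match *Pim1*. A relation of *Pim1* to any of these genes was not tested.

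Subcluster 5 needs its own reading. It listed 2 of the 5 genes, *Socs1* and *Pim1*, beside 38.0% of all genes, so a member listed there is near the background. Of its 1000 listings, 97.8% were of genes in a smaller share of its cells than elsewhere, with a median ratio of 0.453. The ratios were 0.468 for *Socs1* and 0.559 for *Pim1*, close to that median. It listed 4 of the 5 T cell markers in the table, with *Cd3e* in 32.0% of its cells against 4.7%, *Trdc* in 25.6% against 7.0% and *Trbc1* in 45.0% against 81.0%, and 1 ILC2 marker, *Kit*, in 11.2% against 26.6%. The part of these markers in the *Socs1* and *Pim1* values was not tested.

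A higher average with a smaller share of cells was also common among other genes. It was seen in 6 of its 26 listings in the cell type table, where 16.3% of all listings were so, and in 3 of its 10 in the ILC2 subcluster table, where 29.4% were so. In the ILC2 table these were *Cish* in subcluster 0 and both listings in subcluster 5.

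The nearest relatives of the 5 genes had few listings among ILC2s. *Socs4* was listed once, for subcluster 5, in 10.5% of cells against 28.0%. *Socs5* was listed once, for subcluster 8, in 28.1% against 11.6%, the same subcluster as *Socs2*. Its share in other ILC2s was below the entry floor of 25.0%, so its absence elsewhere does not show that those subclusters were alike. *Pim2* was not listed for any ILC2 subcluster. In the cell type table it was found in 69.1% of gdT_TypeIII_ITGAE against 34.3%, in 55.2% of ILC1_ILC3 against 34.6%, in 44.8% of NK against 34.4%, in 40.0% of ILC1 against 34.5% and in 36.2% of CD8_Naive against 34.7%, and in fewer gdT_Naive cells, 28.2% against 35.2%. *Pim3* was found in 90.4% of Basophil against 51.9%, in 74.9% of ILC1 against 51.2% and in 69.3% of NK against 51.7%. *Pim1* and *Pim3* were both listed for Basophil, and *Pim1* and *Pim2* for ILC1_ILC3 and gdT_TypeIII_ITGAE.

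**Figure D3:**
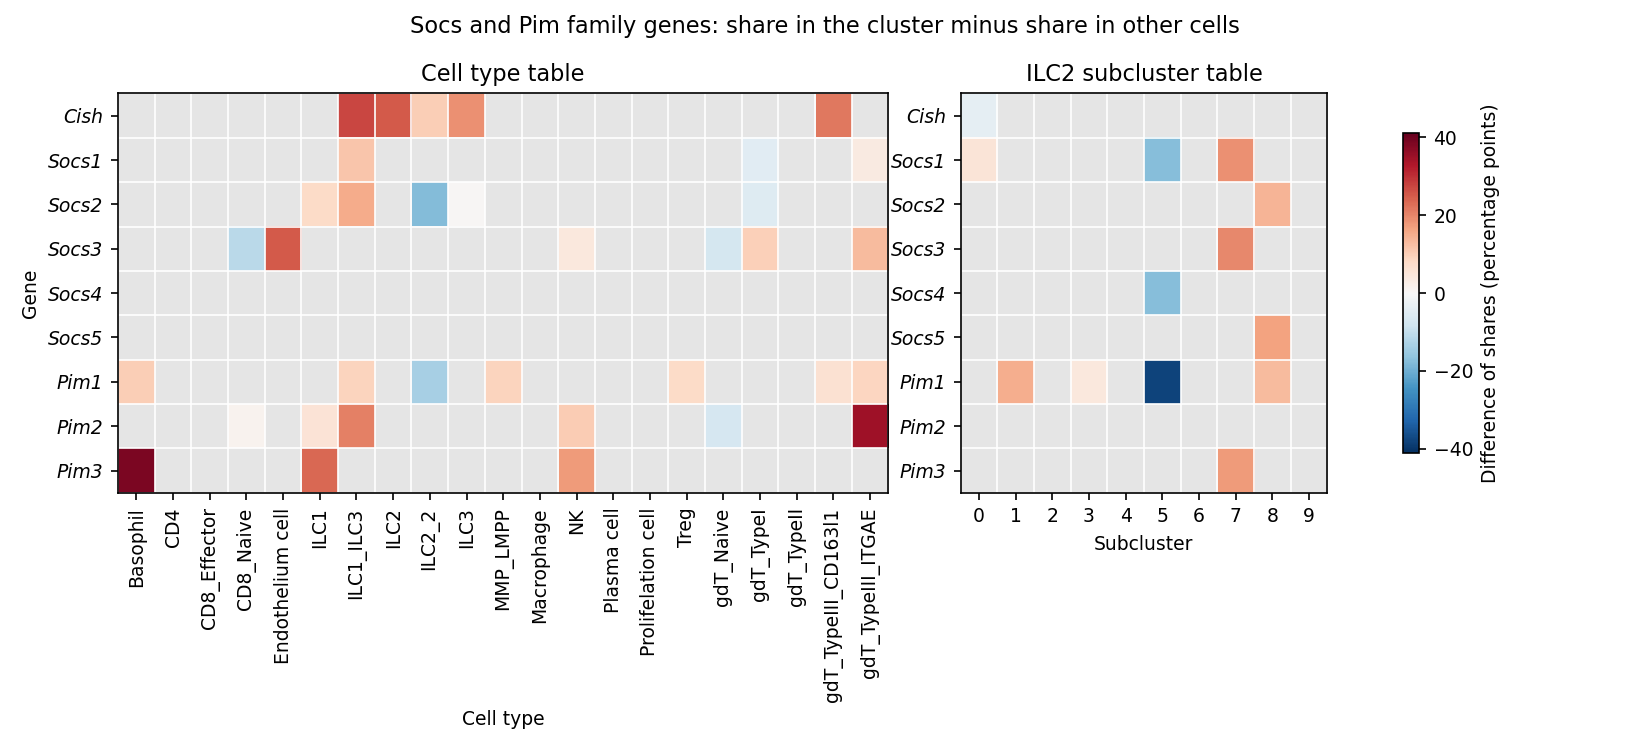
Each cell of the grid gives, for a gene (rows) and a cluster (columns), the share of cells in the cluster minus that in other cells, in percentage points on the colour scale, and grey marks pairs that were not listed. The ILC1_ILC3 column is filled for *Cish*, *Socs1*, *Socs2*, *Pim1* and *Pim2*, and the subcluster 5 column holds only blue cells, for *Socs1*, *Socs4* and *Pim1*.

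The wider route was followed with a list of 88 genes for receptors, kinases, STATs, other brakes, targets and ligands, of which 36 were found in the cell type table and 41 among the ILC2 subclusters. Of 28 receptor genes, 11 were in the first and 16 in the second. Of 4 JAK genes, 0 and 1 were, and of 7 STAT genes, 1 and 4. Of 20 other brakes, 5 and 8 were, and of 15 STAT target genes, 9 and 8. A gene counted as absent may not have been among those the authors tested.

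Subcluster 8, the subcluster of *Socs2* and 1 of the 3 with more *Pim1*, listed 13 of the 41 genes, or 31.7%, beside 9.62% of all genes. Among them was *Stat3*, in 86.5% of its cells against 70.6%. Also listed there were *Jak2* in 64.0% against 51.4% and the interferon target *Irf1* in 44.9% against 29.3%. *Socs1*, itself a known interferon target, was not listed for this subcluster. Subcluster 8 also listed *Top2a* in 49.4% against 30.2%.

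Subcluster 1 listed 10 of the 41 genes, or 24.4%, including *Stat3* in 83.6% of cells against 67.4% and *Ptpn1*, a phosphatase that acts on JAKs, in 66.1% against 46.4%. Subcluster 3 also listed 10, including *Il2ra* in 85.1% against 74.8% and *Jak2* in 56.1% against 50.7%. Subcluster 7 listed 9, or 22.0%, and subcluster 0 listed 7, or 17.1%. The proliferating subcluster 4 listed 4, or 9.76%, beside 30.5% of all genes. In subcluster 5 the route was listed at about the background, with 16 of 41 or 39.0% beside 38.0%, and 15 of the 16 were in fewer of its cells than elsewhere. Both STAT5 genes were among them, *Stat5a* in 9.2% of cells against 26.5% and *Stat5b* in 10.8% against 28.3%.

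**Figure D4:**
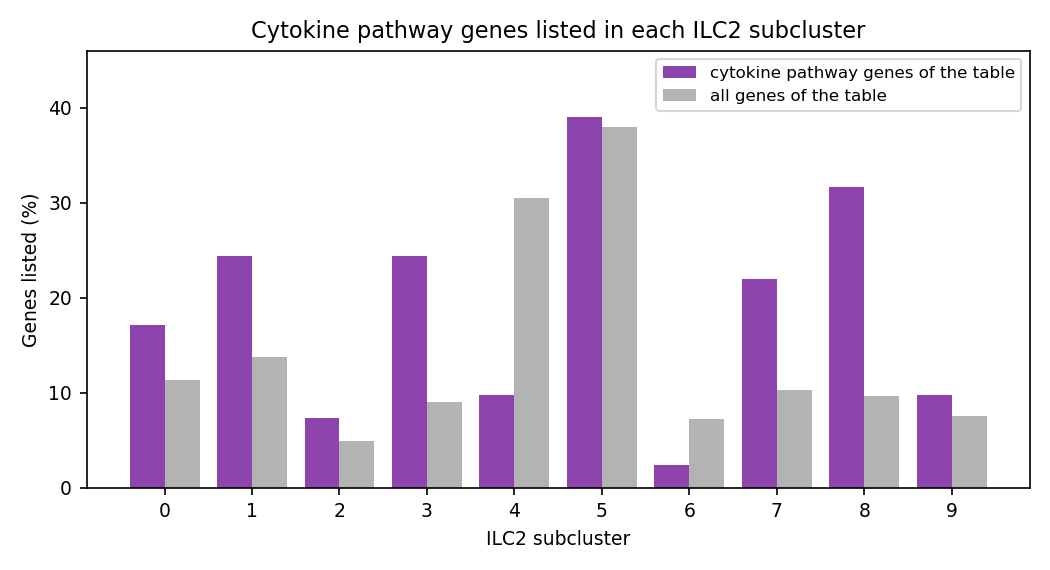
Bars give, for each ILC2 subcluster on the x axis, the percentage of the 41 cytokine pathway genes of the table that were listed there (purple) and the percentage of all genes of the table (grey). The purple bar is the taller by the most in subcluster 8, at 31.7% beside 9.62%, and it is the lower in subclusters 4, at 9.76% beside 30.5%, and 6, at 2.44% beside 7.23%.

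The genes most like each member were taken as those whose set of listing clusters overlapped most with its own, by the Jaccard index (shared clusters divided by all clusters of either gene). Over the 21 cell types, *Asb2* and *Slc7a6os* were most like *Cish* with an index of 0.8, followed by *Rora*, a transcription factor needed for ILC2s, with 0.714. *Cxcl10*, a chemokine induced by interferon, was most like *Socs1* with 0.667, and *Maff* followed with 0.5. *Gbp4*, another interferon-induced gene, and the chemokine receptor gene *Cxcr3* were most like *Socs2* with 0.667 each, ahead of *Ahr* with 0.571. *Sgk1*, with 0.667, was most like *Socs3*, ahead of *Rasa3* and *Sh3bp5* with 0.625 each.

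*Nfkbid*, with 0.714, *Zfp36*, with 0.667, and *Dusp1*, with 0.625, were most like *Pim1* over cell types. All 3 are known as genes that lymphocytes and macrophages induce quickly on stimulation. Over the 10 subclusters, *Arl4c* had the same 3 subclusters as *Socs1*, an index of 1.0, ahead of *Fut8* and *Ptpre* with 0.667 each. *Btg2*, with 0.8, and *Ifi203* and *Myh9*, with 0.75 each, were most like *Pim1* there. Each index rests on 8 or fewer clusters per gene, and clusters share the same libraries.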

How the data were processed

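Sorted liver and lung ILC2s were profiled by droplet-based scRNA-seq in 4 libraries, 1 per group, with groups taken from the labels. The authors aligned reads with Cell Ranger to mm10 per the labels, dropped low-quality cells by their number of detected genes, merged the libraries, clustered them in Seurat and listed the marker genes of each cluster. No barcodes or cells were analysed here, so no doublet caller was run, and the authors relied on the sort gates for doublets and dead cells. The tables carry neither depth nor cell numbers. Per the study's methods, tissue of several mice was pooled in each group.

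The deposited shares of cells with a gene, inside a cluster and in all other cells, are fractions to 3 decimals and are printed as percentages. The deposited log2 fold changes and p-values hold the authors' own comparisons over cells. They served only as filters, at a log2 fold change of 0.5 and an adjusted p-value of 0.05, and are not printed. The ratio of adjusted to raw p-values was 2000 in the cell type table and 14354 at the median in the ILC2 subcluster table, which gives the number of genes tested. The tables held 0 further columns of values.

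A gene's share over all cells is the same whichever of its listings it is computed from, as a mean of its 2 shares weighted by cluster size. Cluster sizes were solved from this by least squares, using genes with 2 or more listings (1045 and 768 genes, with root mean square residuals of 0.0233 and 0.0204 percentage points), and checked on simulated data. Sizes gave each gene's overall share, its mean over clusters that did not list it, and the part of its positive cells in each cluster. The rounding limits and SEs do not cover differences between mice or libraries. Python 3.11.15, numpy 2.4.6, pandas 2.3.3 and matplotlib 3.10.9 were used.

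The genes, the pathway and marker lists and the rules were chosen with earlier results of these data known. Genes named were the 5 members, the 3 genes most like each member listed for at least 2 clusters of a table, pathway genes in clusters of a member, the other Socs and Pim genes and markers. A planned comparison of the protein sequences was not run. Some genes that these rules name are not reported here. Other filters, other fits of the sizes and other motifs were tried as alternatives.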

Additional observations from a re-analysis of the deposited data

How the results depend on the processing

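No paired analysis was possible because neither table gave values by library. Of the 20 alternative counts of cell types listing a gene, 13 stayed within 1.5 times the reported count and 7 moved. Under the filter on log2 fold change (0.5), *Socs1* was left with 1 type and *Socs2* with 3. With a share above that of other cells, *Socs2* was left with 3. With a share at least 0.1 above it, *Socs1* and *Socs2* were left with 1 each, *Socs3* with 2 and *Pim1* with 1. Among ILC2 subclusters 10 of 20 counts moved. With an adjusted p-value under 0.05, *Socs2* was left with 0. Under the filter on log2 fold change (0.5), *Cish*, *Socs2* and *Socs3* were left with 0, *Socs1* with 1 and *Pim1* with 2. With a share above that of other ILC2s, *Cish* was left with 0. With a share at least 0.1 above it, *Cish* was left with 0, *Socs1* with 1 and *Pim1* with 2. Each filter removes listings by construction.

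Under the 4 other fits of the sizes, all 40 overall shares and 40 means over unlisted clusters kept their printed values, and all 144 parts of positive cells stayed within the error of the sizes and of rounding. Of the 3 genes most like a member, 2 or 3 remained in the cell type table under the adjusted p-value filter, and among ILC2 subclusters 0 remained for *Socs1* and 1 for *Pim1*. The STAT6 spacing gave 0 matching promoter windows in place of 2, and the interferon regulatory factor motif, chosen after seeing the data, gave 1. The tables gave no depth, and values of subclusters 7 and 8, at 1.42% and 0.668% of ILC2s, rest on few cells.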

Other observations

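Further cytokine and receptor genes of the same route are given here as values, and those named here for gdT_TypeII and subcluster 4 were chosen after their values were seen. Basophil listed 12 of the 36 pathway genes in the cell type table, or 33.3% beside 16.4% of all genes. The ligand genes *Il6*, found in 95.8% of its cells against 11.4% of other cells, and *Osm*, found in 96.1% against 31.4%, were among them, and so was *Csf2rb*, the shared receptor chain for IL-3, IL-5 and GM-CSF, in 97.3% against 30.1%. ILC2 listed *Il2* in 80.2% of cells against 49.6% and *Lif* in 52.9% against 34.4%, beside *Il2ra* and *Cish*, where 27.8% of the pathway genes and 8.1% of all genes were listed and the median ratio of shares was 1.49. gdT_TypeII, which listed none of the 5 genes, listed *Il1rl1* in 95.3% against 65.6% and *Il2ra* in 87.6% against 61.8%.

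Among ILC2s, *Il2rb*, the signalling chain of the IL-2 receptor, was found in 75.9% of the proliferating subcluster 4 against 35.2% of other ILC2s, and the phosphatase gene *Ptpn6* in 45.2% against 17.9%. Subcluster 4 listed 30.5% of all genes with a median ratio of 1.95, 9.76% of the pathway genes and none of the 5 feedback genes.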
